A study of Homo sapiens with 8 samples.

Results

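YAP and TEAD target genes were followed in the human clear cell renal carcinoma line 786-O, an established line that lacks functional VHL, after treatment with pentamidine. The genes are the 10 members ANKRD1, CCN1, CCN2, AXL, AMOTL2, AJUBA, LATS2, CRIM1, NT5E and TEAD1, of 17014 gene symbols named on the arrays. ANKRD1 was chosen by its higher signal in the pentamidine arrays of the first array type, so its difference there is a description. It was left out of every count of probe sets that passed the test. Counts of direction over all 21 probe sets include it. The other genes were chosen as members of the YAP and TEAD pathway, with earlier results of these data known. All 21 probe sets that the array annotation assigns to these genes were used (a name ending in s_at marks probes shared by several transcripts), with the former symbols CYR61 for CCN1 and CTGF for CCN2.

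The cells were kept in serum-containing RPMI-1640 medium and received 25 μM pentamidine, an aromatic diamidine used against protozoal infections that binds AT-rich DNA, or its vehicle DMSO for 6 h. Total RNA was measured on 2 types of Affymetrix expression array, each with 2 DMSO arrays and 2 pentamidine arrays. Each treatment was run as biological duplicates per the labels, but it is not stated whether the second array type carried the same cultures as the first, so the types were kept apart. The authors' intensities were scaled to trimmed means of 500.2 (first type) and 500.1 (second type) on all arrays, array pairs correlated at 0.972 to 0.982 and 0.831 to 0.862 across probe sets, and 2 arrays a group limit the precision of every value. Of the renal carcinoma markers listed for 786-O, 7 of 8 were on the first type and all 7 passed the filter on low values, with the renal transcription factor PAX8 at 2097 and 1827 units under DMSO and PAX2, a related factor, at 87.2 and 41.8.

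YAP and its relative TAZ, encoded by WWTR1, are transcriptional co-activators without a DNA-binding domain of their own. They act through the TEAD transcription factors, whose sites carry the letters CATTCC, or GGAATG on the other strand. The Hippo kinase cascade ends in LATS1 and LATS2, which phosphorylate YAP and TAZ and keep them in the cytoplasm. Among the best known targets are secreted matrix proteins (CCN1, CCN2), and several targets feed back on the pathway (LATS2, AMOTL2, AJUBA).

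RefSeq promoter windows (GRCh38.p14) matched 7 of the 10 genes, all but CCN1, CRIM1 and TEAD1, with 10 windows in all. In the 250 bases before the start, CATTCC or GGAATG was found in 5 of the 10 windows, belonging to 5 genes: CCN2, ANKRD1, AMOTL2, AJUBA and AXL. It was found in 11.9% of all 35116 RefSeq windows of this length. CCN2 had 3 matches and ANKRD1 had 2, where 0.0797% and 0.928% of all windows held at least that many. These are letter matches only, searched on both strands, and the windows without one were those of LATS2 and NT5E and the other windows of AMOTL2, AJUBA and AXL. The G and C share of the windows ran from 49.2% to 75.2%, with a median of 58% over all windows. The windows of CCN2 and ANKRD1, which had the most matches, are shown. The ANKRD1 window is chr10:90921088-90921337 and the CCN2 window chr6:131951373-131951622, both on the minus strand and printed 5′ to 3′ with the matches in capitals.
ANKRD1: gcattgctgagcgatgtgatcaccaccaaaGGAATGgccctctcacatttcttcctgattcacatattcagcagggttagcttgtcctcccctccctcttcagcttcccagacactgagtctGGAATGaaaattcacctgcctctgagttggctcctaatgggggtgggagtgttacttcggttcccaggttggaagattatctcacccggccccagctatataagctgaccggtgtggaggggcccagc
CCN2: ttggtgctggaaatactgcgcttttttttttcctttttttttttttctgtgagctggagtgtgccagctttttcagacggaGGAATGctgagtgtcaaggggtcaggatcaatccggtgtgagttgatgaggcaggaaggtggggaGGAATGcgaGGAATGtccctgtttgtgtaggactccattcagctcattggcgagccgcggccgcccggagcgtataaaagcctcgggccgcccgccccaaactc

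In ANKRD1 the matches begin 220 and 128 bases before the start, and in CCN2 they begin 169, 104 and 95 bases before it.

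By mean log2 difference, the other targets of the first array type lay within 1.5-fold of DMSO under pentamidine. ANKRD1, the gene chosen for its higher signal, had more signal in a dim probe set. Some 95% intervals reached beyond 1.5-fold, as for AXL 202686_s_at (-0.74 to 0.26) and TEAD1 214600_at (-0.47 to 1.38). Others, such as that of AMOTL2 203002_at (-0.44 to 0.52), did not. The means therefore do not show that every change was this small. No probe set of the other 9 genes passed the test on either type. On the first type, 8 genes had 11 probe sets, all of which passed the filter. Besides ANKRD1, 2 of the 10 lay above and 8 below DMSO, with a median log2 difference of -0.05 against 0.03 over all 15550 probe sets tested. The second type held 5 genes with 10 probe sets, all past the filter, of which 4 lay above and 6 below DMSO, with a median of -0.08 against 0.02 over 15804. All differences are of log2(intensity + 16), pentamidine minus DMSO, which understates the change of dim probe sets.

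The test was limma's moderated test over the whole table of an array type, with Benjamini-Hochberg adjustment and a threshold of 0.05. It called 0 of the 10 probe sets other than ANKRD1 on the first type and 0 of 10 on the other, where it called 0% of all probe sets tested on either. At an unadjusted p under 0.05 the first type had 0 of these and the second had 1, a dim LATS2 probe set, beside 752 and 1108 over all probe sets. A limma fit with a variance trend also called 0 of them, while over all probe sets it called 0% (first type) and 0.0127% (second type). On the second it called 2 probe sets that the fit without a trend did not, named after their values were seen: 223249_at of CLDN12, a claudin (log2 difference -0.88), and 238199_x_at, unnamed here (-1.61). Without ANKRD1, both pentamidine arrays lay above both DMSO arrays for 0 of 10 probe sets on the first type, where 19.5% of all probe sets tested did so, and below for 3, where 15.6% did. The same held on the second type for 1 of 10 above, against 17.7%, and for 2 of 10 below, against 16.5%. With so few probe sets, nothing about these genes is read from these counts.

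**Figure D1:**
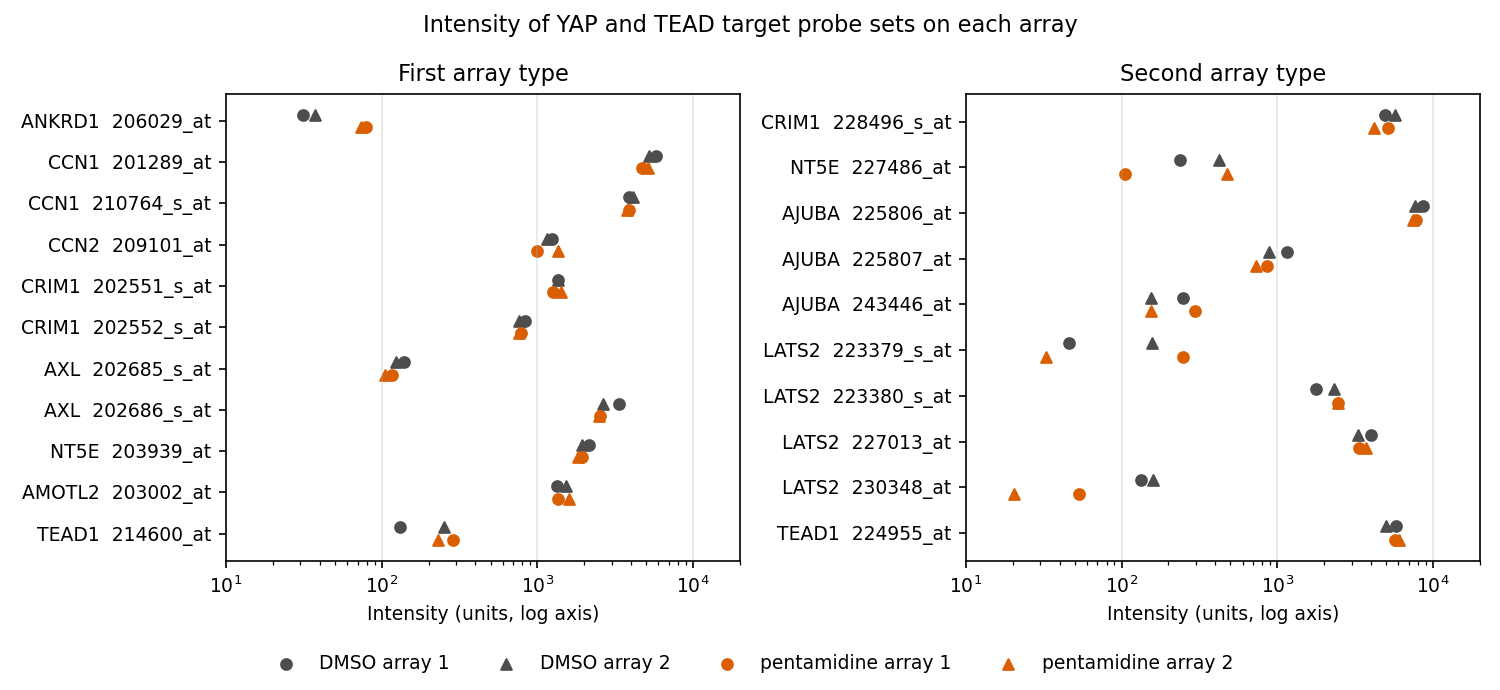
Intensity of each probe set of the YAP and TEAD target genes (log axis, arbitrary units) on each array, with DMSO in grey and pentamidine in orange, and circles and triangles for arrays 1 and 2. ANKRD1 is the one probe set on the first type with both pentamidine arrays (73.8 and 79.0) above both DMSO arrays (31.2 and 37.5), and brightness is not comparable between probe sets.

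ANKRD1 encodes a muscle ankyrin repeat protein that acts as a nuclear cofactor and is used widely as a readout of YAP activity. Its probe set, 206029_at, measured 31.2 and 37.5 units under DMSO and 79.0 and 73.8 under pentamidine. The groups did not overlap, and the mean was 2.22-fold higher in pentamidine. The log2 difference was 0.88 (n = 2 per group), and the arrays of one group differed by at most 0.18. As the gene was chosen by these values, the gap between the groups is no test of a change. With an offset of 1 the log2 difference was 1.14 and with an offset of 64 it was 0.51. In bulk RNA, a change in every cell and a change in the share of cells that make the transcript cannot be told apart.

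The ANKRD1 probe set was dim, at the 45.5th percentile of the first type. Among the 7775 tested probe sets under the median level of 239 units, the pentamidine arrays lay above both DMSO arrays for 22.3%, the median log2 difference was 0.09, and 4.08% had a difference at least as large as that of ANKRD1. Among the 7775 brighter ones 0.0772% did. The 30th percentile of intensity was 19.8 and 20.3 units on the DMSO arrays and 26.3 and 21.7 on the pentamidine arrays. ANKRD1 is abundant in striated muscle, and of 8 muscle markers 7 were on the first type, of which 3 passed the filter. Of these 3, ACTN2 had a log2 difference of 0.51, TTN of 0.48 and DES of 0.01. The other 4, which were under the filter, lay between 0.04 and 0.45. The groups did not overlap for 3 of the 7, ACTN2, MYOG and MYL2, beside the 22.3% of tested dim probe sets above. MYOG and MYL2, under the filter, lie outside that share. MYOG measured 8.87 and 5.38 units under DMSO and 9.67 and 22.5 under pentamidine. MYL2 measured 2.05 and 1.3 units against 2.34 and 8.48. The summed level of the 7 markers was 94.5 and 140 units under DMSO and 156 and 179 under pentamidine, none was at 0, and the muscle regulator MYOD1 measured 2.22 to 3.35 units on all arrays. Their part in the ANKRD1 values was not tested.

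The genes with the profile most like that of ANKRD1 over the 4 arrays of the first type were also dim. ANKRD6, another ankyrin repeat gene, measured 25.9 and 29.9 units under DMSO and 70.5 and 62.3 under pentamidine, with a root mean square difference of 0.03 (log2) from the centred ANKRD1 profile. CEP68, a centrosomal protein, measured 57.9 and 65.3 units under DMSO and 124 and 122 under pentamidine, also at 0.03. TNFRSF13B, a B cell receptor for BAFF and APRIL, and TLL2, a metalloprotease, followed at 0.06. This measure has only 4 points a gene, and the arrays are shared. The genes were found by a search for closeness to the values that chose ANKRD1. A difference as large as that of ANKRD1 was held by 4.08% of dim and 0.0772% of brighter probe sets. Nothing is therefore read from their being dim.

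The secreted matricellular proteins CCN1 and CCN2, the standard YAP targets, did not have both pentamidine arrays above both DMSO arrays. ANKRD1 did, but it was chosen for its higher signal. For CCN1, the probe set 201289_at measured 5761 and 5222 units under DMSO and 4687 and 5169 under pentamidine, with a log2 difference of -0.16 ± 0.16 (SE, 95% interval -0.59 to 0.28). The pentamidine arrays lay below both DMSO arrays, array 2 only just so. The other CCN1 probe set, 210764_s_at, measured 3857 and 4138 units under DMSO and 3901 and 3752 under pentamidine, and here the groups overlapped (-0.06, 95% interval -0.47 to 0.35).

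CCN2 measured 1236 and 1153 units under DMSO and 999 and 1362 under pentamidine. The pentamidine arrays were the lowest and the highest of the 4, and the log2 difference of -0.03 ± 0.21 (SE, 95% interval -0.61 to 0.54) was smaller than the difference of 0.44 between them. A limma fit with a variance trend, which lets the spread depend on the level, put CCN2 between -0.39 and 0.32 and CCN1 by 201289_at between -0.39 and 0.08. CRIM1, a membrane protein with cysteine-rich repeats related to those of BMP antagonists, lay at 1357 and 1352 units under DMSO and 1267 and 1427 under pentamidine by 202551_s_at (-0.01, 95% interval -0.44 to 0.42). Its other probe sets, 202552_s_at (first type) and 228496_s_at (second type), had log2 differences of -0.04 and -0.19, and in all 3 the groups overlapped.

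By mean log2 difference the cell surface genes AXL and NT5E lay under DMSO, but the 95% interval of each probe set also covered no change. AXL, a receptor tyrosine kinase that binds GAS6, measured 3337 and 2656 units under DMSO and 2540 and 2501 under pentamidine by 202686_s_at (log2 difference -0.24 ± 0.18 SE, 95% interval -0.74 to 0.26). Its dimmer probe set, 202685_s_at, measured 139 and 123 units under DMSO and 117 and 105 under pentamidine (-0.21, 95% interval -0.65 to 0.23). The groups did not overlap in either AXL probe set, and neither passed, with limma adjusted p values of 0.93. All 6 stromal markers were on the first type and 4 of them passed the filter. Of the 6, 5 were below DMSO in both pentamidine arrays, where 15.6% of all tested probe sets were. PDGFRB and MYH11, under the filter and so outside that share, were among the 5. Some gaps were small: LUM measured 1152 and 1041 units under DMSO and 1038 and 1039 under pentamidine. PDGFRB measured 3.42 and 11.7 units against 2.86 and 2.79. The summed level of the 6 markers, mostly that of LUM, was 1614 and 1398 units under DMSO and 1393 and 1375 under pentamidine. On the second type 3 of the markers were measured, all 3 above DMSO with groups that overlapped (ACTA2 0.89, MYH11 0.23, DCN 0.01). Their part in the AXL values was not tested.

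NT5E, the ecto-enzyme CD73 that makes adenosine from AMP, measured 2161 and 1928 units under DMSO and 1933 and 1820 under pentamidine on the first type (-0.12, 95% interval -0.55 to 0.31). The groups overlapped by a few units. On the second type 227486_at gave 238 and 421 units under DMSO and 105 and 473 under pentamidine, where the pentamidine arrays spanned the DMSO arrays and differed from each other by 2.01 on the log2 scale, more than the log2 difference of -0.45 between the groups.

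The feedback genes of the Hippo pathway were mixed, with differences that changed from probe set to probe set. AMOTL2, an angiomotin that binds YAP at cell junctions, measured 1332 and 1526 units under DMSO and 1352 and 1592 under pentamidine (0.04, 95% interval -0.44 to 0.52). AJUBA, a LIM protein that restrains LATS kinases, measured 8663 and 7659 units under DMSO and 7735 and 7416 under pentamidine by its brightest probe set, 225806_at (-0.10, 95% interval -0.96 to 0.75). By 225807_at it measured 1148 and 891 under DMSO and 857 and 731 under pentamidine, without overlap (-0.35, 95% interval -1.30 to 0.60). The dimmest, 243446_at, gave 0.13, and array 1 of each group was high and array 2 low, with 247 and 155 units under DMSO and 297 and 155 under pentamidine.

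LATS2, a kinase that phosphorylates YAP, had 4 probe sets on the second type, and their log2 differences ran from -1.68 to 0.27. The brightest, 227013_at, measured 4018 and 3324 units under DMSO and 3344 and 3712 under pentamidine (-0.05, 95% interval -0.95 to 0.84). By 223380_s_at LATS2 measured 1774 and 2324 units under DMSO and 2456 and 2446 under pentamidine, with both pentamidine arrays above (0.27, 95% interval -0.66 to 1.20). The dim probe set 230348_at went the other way, at 134 and 158 units under DMSO and 53.4 and 20.5 under pentamidine. Its log2 difference of -1.68 ± 0.45 (SE, 95% interval -2.99 to -0.37) did not pass (limma adjusted p = 0.536), and the interval was -4.27 to 0.91 with a variance trend. The value was -1.07 with an offset of 64. The fourth LATS2 probe set, 223379_s_at, scattered from 32.5 to 247 units within the pentamidine group alone.

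TEAD1, a DNA-binding partner of YAP and TAZ, measured 131 and 253 units under DMSO and 289 and 229 under pentamidine by 214600_at on the first type. The log2 difference of 0.46 ± 0.35 (SE, 95% interval -0.47 to 1.38) was smaller than the difference of 0.87 between the DMSO arrays. Without DMSO array 1, the low one, it was 0.02, and without DMSO array 2 it was 0.89. On the second type the TEAD1 probe set 224955_at measured 5751 and 4992 units under DMSO and 5727 and 6065 under pentamidine (0.14, 95% interval -0.73 to 1.00), and the groups overlapped.

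**Figure D2:**
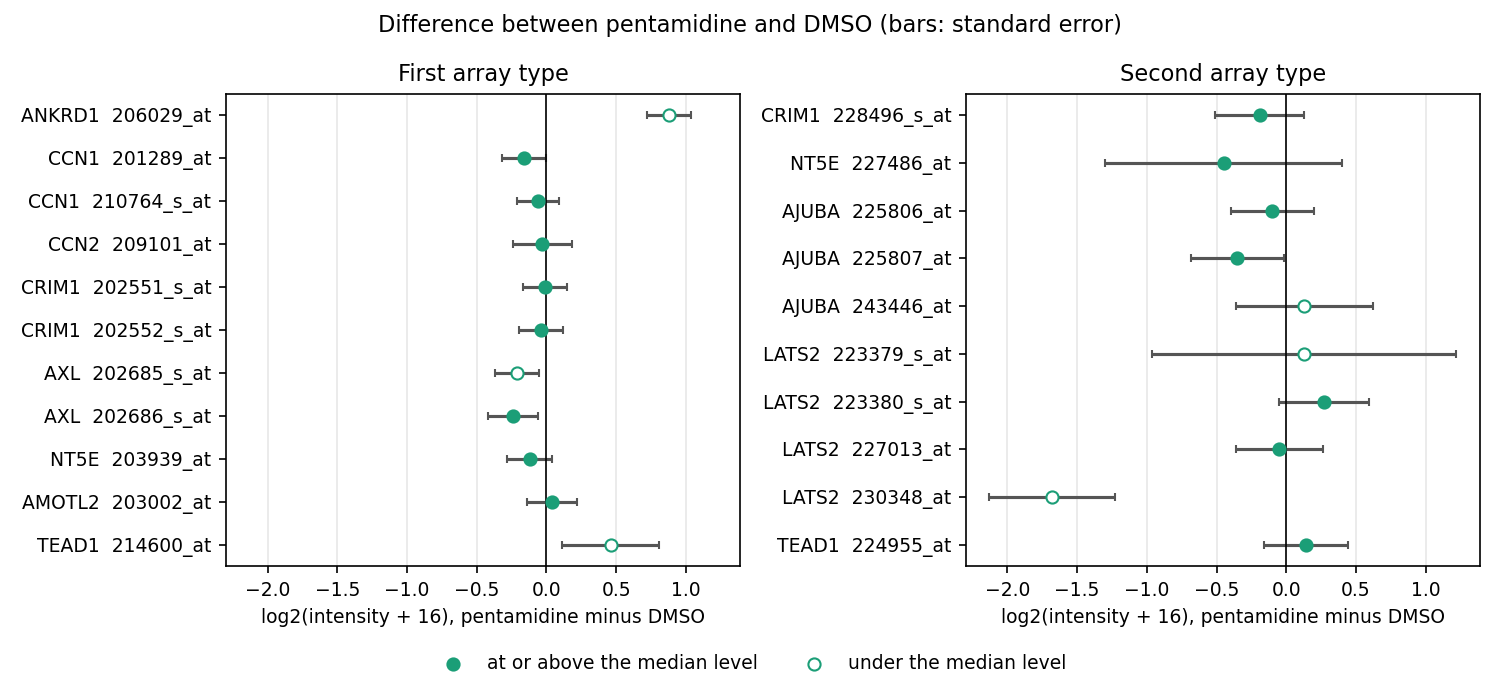
Pentamidine minus DMSO in log2(intensity + 16) for each probe set, with bars for limma's moderated standard error. Open circles mark probe sets under the median level of those tested. The bar of ANKRD1, chosen by these values, is no test of its difference. The first array type holds the probe sets between -0.24 and 0.46 with ANKRD1 at 0.88, and on the second type the LATS2 probe sets range from -1.68 to 0.27.

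Most differences were no larger than those between arrays of the same group. On the first type, leaving out ANKRD1, the log2 difference was smaller than the larger of the 2 within-group differences in 8 of 10 probe sets, and over all probe sets tested this held for 78.5%. On the second type it held for 9 of 10, against 78.4%. The exceptions were AXL 202685_s_at and CCN1 201289_at on the first type and LATS2 230348_at on the second. Of these 10 probe sets of the first type, 10 lay within 1.5-fold of DMSO, against 91% of all tested and 98.8% of those above the median level. On the second, 9 of 10 did, all but LATS2 230348_at, against 62.6% of all tested and 84.8% of those above the median level.

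**Figure D3:**
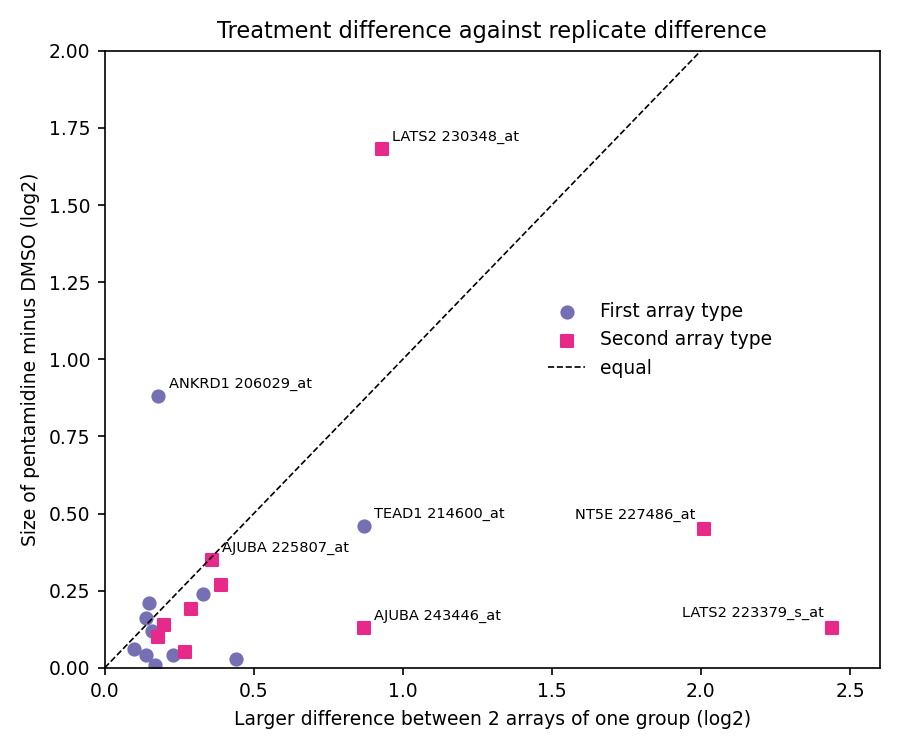
Size of the pentamidine minus DMSO difference against the larger difference between 2 arrays of one group, both in log2(intensity + 16), for each probe set of the 10 genes, with circles for the first array type and squares for the second. LATS2 230348_at lies well above the dashed line of equality, as does ANKRD1 206029_at, which was chosen for its difference. Leaving out ANKRD1, 8 of 10 probe sets of the first type lie below the line, against 78.5% of all tested. On the second type 9 of 10 do, against 78.4%.

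The regulators above these genes were measured by several probe sets that did not move as one. YAP1 measured 317 and 285 units under DMSO and 343 and 292 under pentamidine on the first type (0.07, 95% interval -0.39 to 0.54). On the second type its bright probe sets separated the groups in opposite directions: 224895_at measured 5828 and 4930 units under DMSO and 6054 and 6959 under pentamidine (0.28, 95% interval -0.62 to 1.17). The other, 224894_at, measured 6012 and 5478 under DMSO and 4261 and 4840 under pentamidine (-0.34, 95% interval -1.20 to 0.53). WWTR1 likewise had 3 probe sets at log2 differences of -0.05, 0.34 and -0.24, of which 202134_s_at, at 0.34, had groups that did not overlap.

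The other TEAD genes gave no common direction. TEAD4 lay below DMSO in both of its probe sets, at 283 and 294 units under DMSO and 213 and 244 under pentamidine by 41037_at (-0.32, 95% interval -0.75 to 0.12). By 204281_at it gave -0.24, with 226 and 222 units under DMSO and 221 and 158 under pentamidine. TEAD3 measured 54.6 and 31.6 units under DMSO and 67.6 and 70.3 under pentamidine (0.55, 95% interval -0.10 to 1.20). TEAD2 was measured on the second type by 5 probe sets, 3 of which did not pass the filter, and 238322_s_at gave 183 and 92.1 units under DMSO and 316 and 244 under pentamidine (1.00, 95% interval -0.30 to 2.31). The other that passed, 238321_at, gave 26.4 and 242 units under DMSO and 16.1 and 239 under pentamidine (-0.21), where the arrays of each group lay much further apart than the groups. The TEAD2 probe sets under the filter, 226408_at, 243766_s_at and 238323_at, gave 1.08, 0.52 and -0.21. LATS1 measured 47.0 and 58.9 units under DMSO and 62.9 and 59.0 under pentamidine, a log2 difference of 0.16.

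By 1 tested probe set a gene, the Hippo pathway and TEAD genes lay above DMSO in 8 of 16 (first type) and 6 of 13 (second type), with a median of -0.01 on both. Over all genes 50.8% and 49.6% lay above. No gene of the list passed the test. The furthest below on the first type were NF2, the merlin tumour suppressor upstream of LATS, at -0.46 (1339 and 1063 units under DMSO, 836 and 895 under pentamidine), TEAD4 and AMOT, and the furthest above TEAD3, the LATS-binding LIM protein LIMD1 at 0.53 and the LATS co-activator MOB1A at 0.26. Lowest on the second type, MOB1B, a relative of MOB1A, lay at -0.77, followed by WWC1 at -0.50 and LIMD1 at -0.48. The furthest above there were TEAD2, the kinase TAOK1 at 0.95, whose DMSO arrays measured 521 and 2303 units, and NF2 at 0.33. Several of these genes had other tested probe sets on the other side of DMSO. On the second type LIMD1 gave 1.05 by 234687_x_at, without overlap (193 and 159 units under DMSO, 322 and 447 under pentamidine), and WWC1 gave 2.78 by the dim 237238_at and -0.11 by 236725_at. The other 6 NF2 probe sets of the first type ran from -0.09 to 0.35, while all 4 of MOB1A lay above DMSO, from 0.24 to 0.55.

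Other YAP and TEAD targets lay above DMSO in 5 of 17 on the first type, with a median of -0.04, and none passed. On the second type 2 of 7 did, with a median of -0.08, and none passed. Over all genes 50.8% and 49.6% lay above, with medians of 0.00 and -0.00. The groups did not overlap for 4 above and 6 below on the first type, against 18.2% and 17.7% of all genes. On the second type this held for 1 and 2, against 17.2% and 18.2%. With so few genes, no direction is read from these counts. FJX1, the homologue of the fly four-jointed protein, was furthest below on the first type, at 337 and 332 units under DMSO and 228 and 245 under pentamidine (-0.47 ± 0.15 SE, 95% interval -0.88 to -0.07, limma adjusted p = 0.93). DOCK5 followed at -0.27 and the mitotic survivin gene BIRC5 at -0.26. ANKRD2, a muscle relative of ANKRD1, was furthest above, at 26.1 and 31.8 units under DMSO and 57.0 and 71.1 under pentamidine (0.83 ± 0.18 SE, limma adjusted p = 0.93), and it was dim like ANKRD1. The guanine nucleotide exchange factor gene ARHGEF17 at 0.51 and the endothelin gene EDN1 at 0.49 came next, both also dim.

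EDN1 went the other way on the second type by another probe set, with a log2 difference of -0.36 and 1414 and 1355 units under DMSO against 887 and 1311 under pentamidine. RBMS3, an RNA-binding protein, was furthest below there at -0.47, and CCDC80, a matrix protein, followed EDN1 at -0.23. THBS1, the matrix protein thrombospondin, was furthest above at 0.76 (619 and 590 units under DMSO, 1229 and 873 under pentamidine), followed by ASAP1 at 0.06 and DOCK5 at -0.07. THBS1 gave -1.70 by its other probe set there, 239336_at, also without overlap (210 and 176 units under DMSO, 13.6 and 124 under pentamidine), and its 5 probe sets on the first type ran from -0.06 to 0.65. Other tested probe sets of BIRC5 (to 0.18), CCDC80 (to 0.40) and, on the second type, DOCK5 (-0.77 to 0.38) likewise lay on both sides of DMSO.

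**Figure D4:**
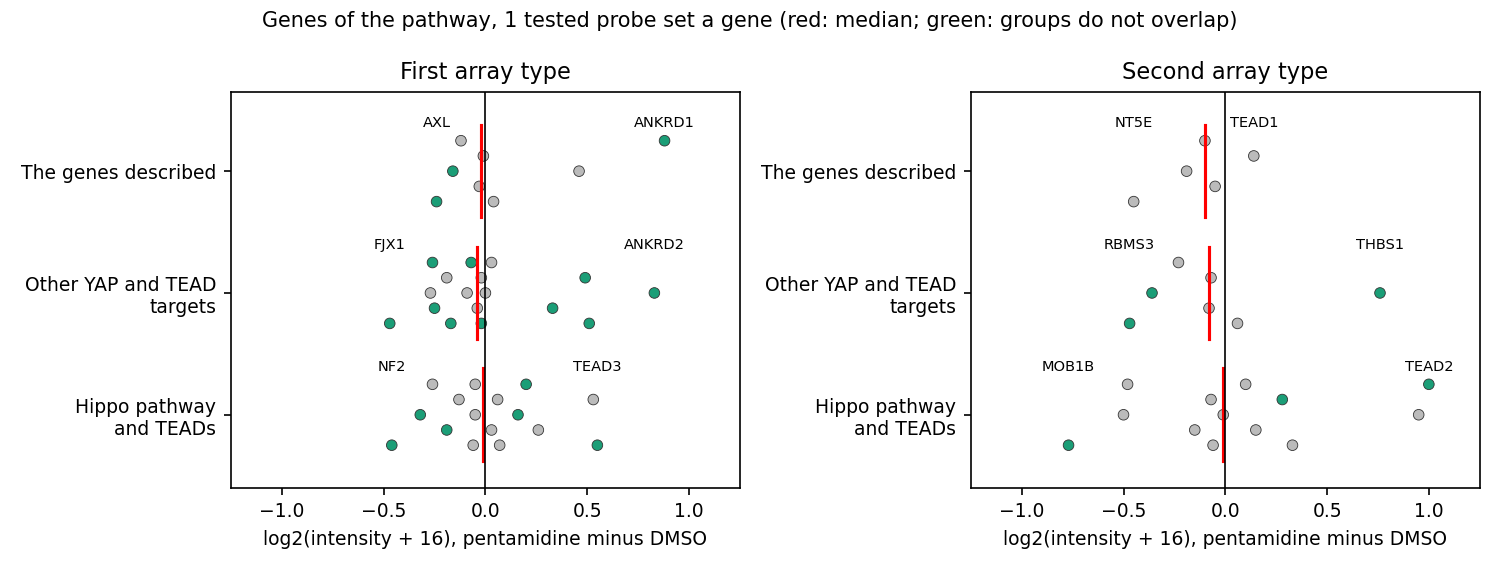
Pentamidine minus DMSO in log2(intensity + 16), 1 tested probe set a gene, for the genes described, other YAP and TEAD targets and Hippo pathway genes on each array type. Green points mark groups that do not overlap, red lines mark medians, which lie between -0.10 and -0.01, and the outermost gene of each row is named. The genes described include ANKRD1 on the first type.

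Relatives of the genes gave no common direction. Of the CCN family, CCN3 measured 328 and 400 units under DMSO and 304 and 405 under pentamidine by 214321_at (-0.04) and gave 0.22 by 204501_at, while CCN4, CCN5 and CCN6 did not pass the filter. ANKRD23, another muscle relative of ANKRD1, was measured on the second type by a pair of dim probe sets at -1.80 and -0.83. Neither passed (limma adjusted p = 0.547 and 0.824), and with a variance trend the intervals were -4.55 to 0.95 and -3.41 to 1.74. The signs were opposite to those of ANKRD2 and ANKRD1 on the first type, where ANKRD1 was chosen for its higher signal. For the AXL family, GAS6, the ligand of AXL, lay at 750 and 598 units under DMSO and 532 and 491 under pentamidine (-0.38, 95% interval -0.88 to 0.12), while its other probe set gave 0.01. TYRO3 gave 0.12 and 0.24. MERTK, from dim probe sets, gave -1.00 by 211913_s_at and 0.54 by 206028_s_at, and -1.12 on the second type, and a MERTK probe set that did not pass the filter gave 0.86. Around NT5E, the adenosine receptors ADORA2A and ADORA2B lay at 0.30 and -0.07, and adenosine deaminase, ADA, at -0.02 and -0.07. ENTPD1, which makes AMP from ATP, lay at -0.08 and 0.55 by its tested probe sets, and those that did not pass the filter gave 0.47 and, on the second type, -1.63.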

How the data were processed

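The files hold intensities of probe sets on a linear scale, deposited after Affymetrix Expression Console (named in the submitters' processing notes), with its algorithm and version not given in the sources used here. Arrays were grouped by the treatment in their titles. Symbols from the platform annotation were updated by gene ID to RefSeq (19713 of 22277 and 13548 of 22665 probe sets), and probe sets with several genes were not named. Control probe sets (62 and 88) and probe sets whose mean intensity lay under the 30th percentile were left out. On log2(intensity + 16), the treatments were compared separately on each array type by limma 3.58.1 in R 4.3.3, with Benjamini-Hochberg adjustment over all probe sets tested. With 2 arrays a group, p-values measure only the spread between these arrays. Dim probe sets are those with a mean under the median of the probe sets tested.

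Named were all probe sets of the 10 genes and of YAP1, WWTR1, the TEADs and LATS1, all measured relatives, the 3 genes furthest above and below DMSO in each pathway list, taken by the tested probe set with the highest mean, and the 4 genes nearest ANKRD1 in profile. For markers the brightest probe set of a gene was used, filtered or not. The members and lists were chosen with earlier results of these data known. Of the other marker lists, 4 of 4 endothelial and 3 of 5 leukocyte markers were on the first type, with summed levels of 22.9 to 118 and 13.6 to 51.2 units. The fits were also run on simulated data with large changes in brighter probe sets only, which cannot show how they treat small or dim differences like those here. Alternatives were quantile normalization, median centring, other offsets and filters, a variance trend, a replicate block and leaving out each array.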

Additional observations from a re-analysis of the deposited data

How the results depend on the processing

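Leaving ANKRD1 out of the count, no probe set of these genes was called under any of the 12 alternatives. This held on both array types (0 of 10 and 0 of up to 10), and a 50th percentile filter tested 10 and 8 of them. Over all probe sets tested the alternatives also called 0, apart from 2 on the second type with a variance trend. Nothing about these genes is therefore read from these counts. Under the 8 alternatives that use all arrays, 20 of the 21 probe sets kept their direction wherever they were tested, and LATS2 227013_at went from -0.05 to just above 0 with quantile normalization, which put 5 probe sets of the second type above and 5 below DMSO. The other filters, the variance trend and the replicate block leave the log2 difference itself unchanged. Only quantile normalization, median centring and the other offsets could turn a direction. ANKRD1, chosen for its difference, is among the 20. Direction was also kept by 13, again with ANKRD1, when each array was left out in turn. Where the groups do not overlap, leaving out 1 array cannot turn the direction. That outcome was fixed beforehand for 1 higher (ANKRD1) and 3 lower probe sets of the first type. On the second type it was fixed for 1 higher and 2 lower. The log2 difference of ANKRD1 ranged from 0.51 to 1.14 over the alternatives that use all arrays. It ranged from 0.79 to 0.97 when each array was left out. Leaving out 1 array turned the sign for CCN2 (-0.25 to 0.19), AMOTL2 (-0.08 to 0.16), NT5E on the second type (-1.46 to 0.55), a pair of CRIM1 and a pair of LATS2 probe sets and 1 of AJUBA. Median centring shifted the median of all tested probe sets of the second type by -0.105, from 0.02 to -0.08, and that of the 10 probe sets from -0.08 to -0.18. The first type moved less, by -0.025 with median centring and -0.032 with quantile normalization. With the replicate number as a replicate block the fit called 0 and 0; deviations of same-numbered arrays correlated at 0.00491 and 0.0137 with 2 pairs, and the labels do not say that the numbers pair the cultures.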
